A study of Mus musculus with 4 samples.

Results

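Transcripts of the metallothioneins Mt1, Mt2 and Mt3 were followed in ribosome footprints of astrocytes and neurons from the mouse brain. A list of 3 Ensembl transcripts was used, ENSMUST00000034215 for Mt1, ENSMUST00000034214 for Mt2 and ENSMUST00000034211 for Mt3. The gene names came with the list, and the deposited files do not pair transcripts with genes. Mt1 and Mt2 had lines in the files, so that 2 transcripts of the 23175 with any count are described. The Mt3 transcript had 0 lines in all 4 libraries. A region without counts has no line, so a transcript with no footprints and one that was never counted cannot be told apart, and Mt3 was not analysed here.

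Metallothioneins are small cysteine-rich proteins that bind zinc and copper, buffer these metals in the cell and scavenge oxidants. Mt1 and Mt2 are made in many tissues, and in the brain they are best known from astrocytes. Their transcription is switched on by zinc through the factor Mtf1, which binds short metal response elements in their promoters, and also by glucocorticoids and oxidative stress. Mt3 is the form known for its high level in the brain and was first described as a growth inhibitory factor.

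All mice were C57BL/6J at postnatal day 21, and each library came from 2 pooled whole brains. In the astrocyte group the ribosomal protein Rpl10a fused to eGFP was made from an Aldh1l1 transgene (Aldh1l1::eGFP-RpL10a), and in the neuron group from a Snap25 transgene (Snap25::eGFP-RpL10a), with 2 libraries in each group. Ribosomes carrying the tag were pulled down with antibodies to GFP and trimmed with RNase I, so the counts are fragments of mRNA that ribosomes covered, and the cells sampled are those in which each driver is active. Untagged littermates are mentioned in the protocol and were not analysed here. The labels do not say more about how the replicate libraries differ than that they came from repeated experiments. Because the transcript IDs carry no gene names, the cell type of each library could not be checked against marker genes.

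Library totals were 7292950 and 7968406 counts for the astrocyte pair, against 7210269 and 12833187 for the neuron pair. Each transcript is divided into regions a, b, c and d, whose meaning is not given in the sources used here. Region b held 91.1% to 92.58% of the counts of a library and region a 6.746% to 8.206%. In the total levels of both metallothioneins the neuron libraries differed more from each other than the astrocyte libraries did, whereas in the region a share of all counts and of Mt1 the astrocyte libraries lay further apart.

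Mt1 and Mt2 lie near each other on mouse chromosome 8, where the family stands in the order Mt4, Mt3, Mt2 and Mt1 in the RefSeq annotation. The promoter sequences are shown because metal response elements are the best known shared feature of the pair. Whether these elements bear on the levels in these libraries was not tested. RefSeq promoter windows on GRCm38.p6 (250 bases before and 50 after the annotated start, plus strand) were searched on both strands for the element's core in the forms TGCACNC and TGCGCNC, where N is any base. Matches to either form on either strand were counted one by one, also where they overlapped. The bases before the start are given 5′ to 3′ with the matches in capitals, for Mt1 at chr8:94178839-94179088 and for Mt2 at chr8:94172368-94172617.
Mt1: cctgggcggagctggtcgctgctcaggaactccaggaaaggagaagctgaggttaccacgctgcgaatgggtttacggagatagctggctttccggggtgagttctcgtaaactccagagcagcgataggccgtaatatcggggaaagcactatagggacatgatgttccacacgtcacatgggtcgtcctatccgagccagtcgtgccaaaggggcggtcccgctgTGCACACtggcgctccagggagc
Mt2: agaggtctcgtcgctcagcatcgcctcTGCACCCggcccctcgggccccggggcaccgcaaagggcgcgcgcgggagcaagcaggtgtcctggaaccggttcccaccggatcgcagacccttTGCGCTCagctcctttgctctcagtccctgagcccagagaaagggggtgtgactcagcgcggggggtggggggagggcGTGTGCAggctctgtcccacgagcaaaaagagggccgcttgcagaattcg

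The Mt1 window held 3 matches, beginning at positions -23, 3 and 21, where 1 is the annotated start and -1 the base before it. For Mt1 the RefSeq gene annotation has another start 206 bases upstream of the one used in the promoter window. By that other start most of the Mt1 bases printed lie inside the gene. For Mt2 and Mt3 the starts coincide. Positions and match counts of Mt1 hold only for the start used in the window, and which start these cells use was not tested. Bases beyond the window on either side were not searched, so 3 is not a count for the whole Mt1 promoter. The last 2 Mt1 matches lie just after the start at chr8:94179091-94179115 and form the stretch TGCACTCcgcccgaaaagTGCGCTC. The Mt2 window held 4 matches, beginning at -223, -128, -50 and 5, of which those at -50 and 5 were on the minus strand. The Mt3 window held 1 match, at position 28. Of all 32851 promoter windows of this length, 25.7% held at least 1 match, 1.97% held at least 3 and 0.517% held at least 4. A match is a run of letters and was not tested as a binding site in these data.

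**Figure D1:**
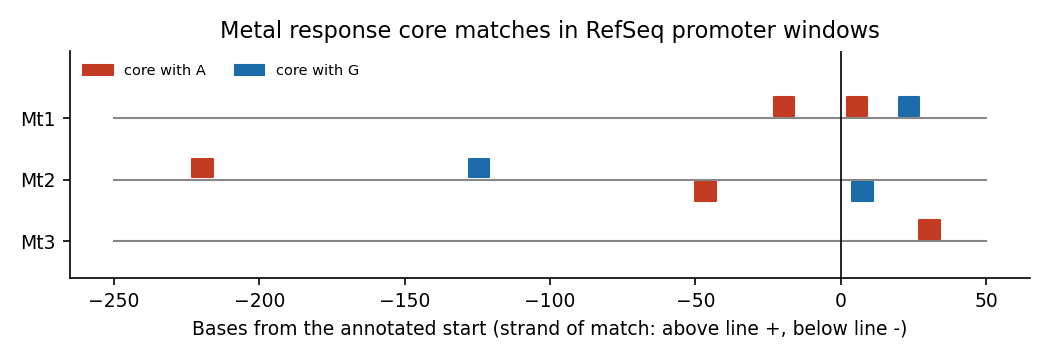
Matches to the core of the metal response element in the RefSeq promoter windows of Mt1, Mt2 and Mt3, with bases from the annotated start on the x axis and plus and minus strand matches above and below each line, red for TGCACNC and blue for TGCGCNC. Mt2 has 4 matches spread over its window, Mt1 has 3 close to the start used for its window and Mt3 has 1 after the start.

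Footprints of Mt1 were abundant in astrocytes and about an order of magnitude lower in neurons. Mt1 measured 2607 and 2862 CPM (counts scaled to a common library total) in astrocyte 1 and 2, against 347.8 and 165.1 CPM in neuron 1 and 2. Both astrocyte libraries lay far above both neuron libraries, with no overlap. How many of all transcripts separate in this way was not counted. Here and below, a lack of overlap between 2 and 2 libraries only describes the values. In the order of all transcripts, Mt1 took place 22 in both astrocyte libraries, and places 347 and 1197 in neuron 1 and 2. Its group means were 2735 ± 181 CPM in astrocytes and 256.5 ± 129 CPM in neurons (SD, n = 2 each).

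Mt2, whose protein binds metal in the same way, followed the same pattern. It measured 1112 and 1236 CPM in astrocyte 1 and 2, against 153 and 78.16 CPM in neuron 1 and 2. The groups again did not overlap, and neuron 1 was the higher of the neuron libraries, as it was for Mt1. Mt2 took places 51 and 47 in the astrocyte libraries, against 1312 and 3131 in neuron 1 and 2. Its means were 1174 ± 87.8 CPM in astrocytes and 115.6 ± 52.9 CPM in neurons (SD, n = 2 each). In such pooled tissue, a smaller share of cells that make a transcript and a lower level in each cell cannot be told apart.

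In a quasi-likelihood fit across 18819 transcripts, the log2 fold change of astrocyte over neuron was 3.53 (SE 0.356) for Mt1 and 3.46 (SE 0.322) for Mt2, or 11.6-fold and 11.0-fold. These values are a description with no test, since the metallothioneins were selected on this contrast: the high level and fold change of Mt1 in astrocytes, and its large region a share, were known when the list was made, and Mt2 and Mt3 are its relatives. Over all transcripts tested, 17.1% were called in either direction, and 12.9% were called higher in astrocyte and 4.24% higher in neuron samples at an adjusted p under 0.05 in edgeR, that is 2422 and 797 transcripts. Library totals in place of TMM scaling gave 2130 called higher in astrocyte and 1506 higher in neuron, and shifted the median log2 fold change of all transcripts by -0.119. Calls in either direction, 3219 with all libraries, numbered 1734 without astrocyte 1, 1523 without astrocyte 2, 8959 without neuron 1 and 6369 without neuron 2. Relative to the median of all transcripts, Mt1 stood at 3.56 under both scalings and Mt2 at 3.49 with TMM and 3.50 with library totals.

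Only 8 of the 18819 transcripts had a higher log2 fold change than Mt1, and 14 a higher one than Mt2. Among the 2211 of them with a mean of at least 100 CPM, 3 lay above Mt1 and 4 above Mt2, Mt1 itself being one of the 4. Single libraries moved the size of these folds. Without neuron 1 the log2 fold change was 4.19 for Mt1 and 4.05 for Mt2, and without neuron 2 it was 3.07 and 3.03.

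**Figure D2:**
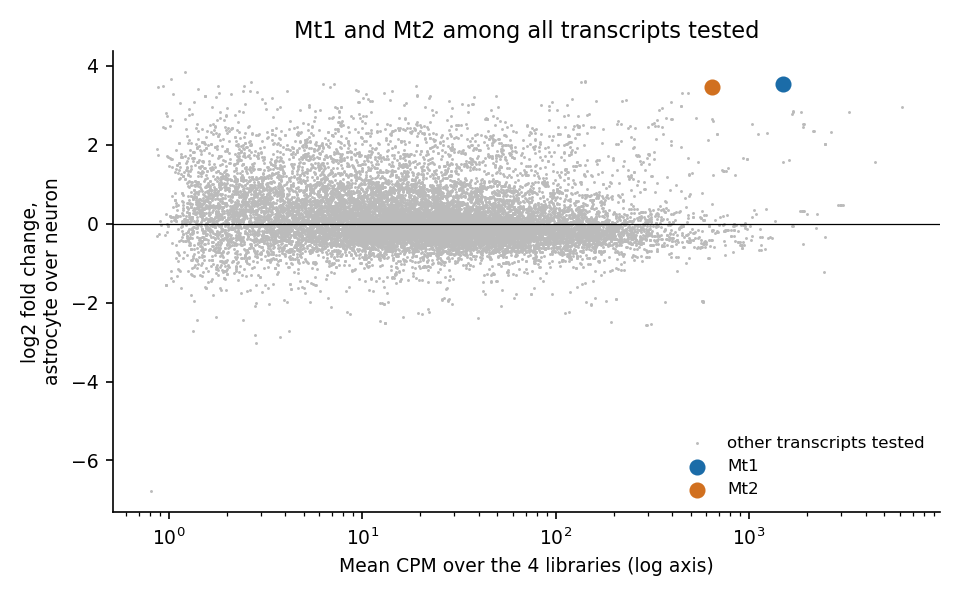
The log2 fold change of astrocyte over neuron on the y axis against the mean CPM over the 4 libraries on a log x axis, 1 point per transcript tested. Mt1 and Mt2, at 3.53 and 3.46, lie at the upper edge of the cloud and far to the right of most transcripts with folds of that size.

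The level that Mt1 and Mt2 kept in neuron libraries was close to the lowest found for any abundant transcript. Mt1 in neuron 1 stood at 12.72% of its astrocyte mean, and in neuron 2 at 6.038%. Mt2 stood at 13.03% in neuron 1 and 6.658% in neuron 2. Among 1985 transcripts with at least 100 CPM in both astrocyte libraries, the lowest such value was 12.28% in neuron 1 and 5.664% in neuron 2, and the medians were 112.4% and 108.8%. In each neuron library 3 of these transcripts lay lower than Mt1, and these 3 had identical region b counts in every library. Mt2 had 4 below it, Mt1 itself being one of the 4. This percentage carries the same contrast on which the list was selected, and the 100 CPM minimum was set in astrocytes alone. These low places are therefore a description with no test. Neuron 1 was 2.107-fold above neuron 2 for Mt1 and 1.957-fold for Mt2, while the lowest values of the 2 libraries differed in the same direction. Whether footprints from astrocytes in the neuron libraries have a part in these levels was not tested.

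The transcripts whose profile over the 4 libraries was most like that of Mt1 were ENSMUST00000071697, ENSMUST00000039909 and ENSMUST00000108110. Likeness was the distance between log2 CPM values centred on their mean, over 4 libraries and 13353 candidates of at least 10 CPM, and the distances were 0.0349, 0.0469 and 0.0653. These 3 had identical region b counts in every library, 1636 and 1904 in astrocytes and 201 and 169 in neurons, so they stand for a single profile. Mt2 came next, in place 4, at a distance of 0.118, and Mt1 was the nearest of all transcripts to Mt2. The distance includes the astrocyte over neuron contrast on which the list was selected, so this likeness is a description. Whether fragments split between Mt1 and Mt2 in counting have a part in their likeness was not tested. The 3 transcripts stood at 12.28% to 12.44% of their astrocyte mean in neuron 1 and at 5.664% to 5.916% in neuron 2, and are the ones that lay below Mt1.

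**Figure D3:**
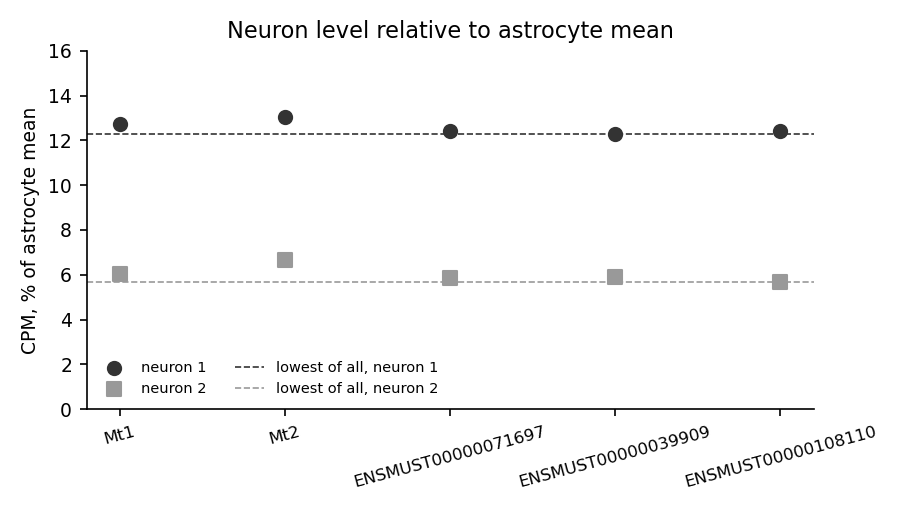
CPM in neuron 1 (circles) and neuron 2 (squares) as a percentage of the astrocyte mean, for Mt1, Mt2 and the 3 transcripts nearest to Mt1. Dashed lines mark the lowest value among the 1985 abundant transcripts, 12.28% in neuron 1 and 5.664% in neuron 2, and all 5 transcripts lie close to them. The percentage carries the contrast on which the list was selected.

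Mt1 and Mt2 kept nearly the same proportion to each other while their levels changed. The Mt1 count was 2.345 and 2.316 times the Mt2 count in astrocyte 1 and 2, against 2.274 and 2.113 times in neuron 1 and 2. These are ratios of counts not corrected for transcript length, and length drops out when libraries are compared. Mt1 and Mt2 are close paralogs, and whether counting split fragments between them was not tested. The ratio averaged 2.33 ± 0.0203 in astrocytes and 2.193 ± 0.114 in neurons (SD, n = 2 each), a gap close to the spread of the neuron pair, although the groups did not overlap. In region b alone the ratio was 1.95 and 2.062 in the astrocyte libraries, against 2.04 and 1.773 in the neuron libraries, and the groups overlapped. In region a it was 3.51 and 3.041 in the astrocyte libraries, against 2.815 and 2.978 in the neuron libraries, again without overlap.

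Both transcripts carried a large part of their footprints in region a. The region a share of Mt1 was 36.26% and 32.54% in astrocyte 1 and 2, against 35.81% and 38.51% in neuron 1 and 2. The groups overlapped. For Mt2 the share was 24.22% and 24.78% in the astrocyte libraries, against 28.92% and 27.32% in the neuron libraries, and here every neuron library lay above every astrocyte library. The 95% Wilson intervals, which cover counting error only, ran from 23.3% to 25.17% and from 23.93% to 25.64% for Mt2 in astrocyte 1 and 2, against 26.32% to 31.67% and 24.65% to 30.16% in neuron 1 and 2. The interval of neuron 2 overlapped those of both astrocyte libraries.

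Among 10817 transcripts with at least 100 counts in every library, the median region a share was 4.264% to 5.172%. The share of Mt1 was above that of 95.46% and 97.48% of them in the lowest and the highest library, and the share of Mt2 above that of 92.21% and 95.22%. These shares are not corrected for the lengths of the regions, which are not in the files, and a short coding sequence can raise the share of the other regions. A large share had been noted when the transcripts were chosen, so its place in the order is a description.

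**Figure D4:**
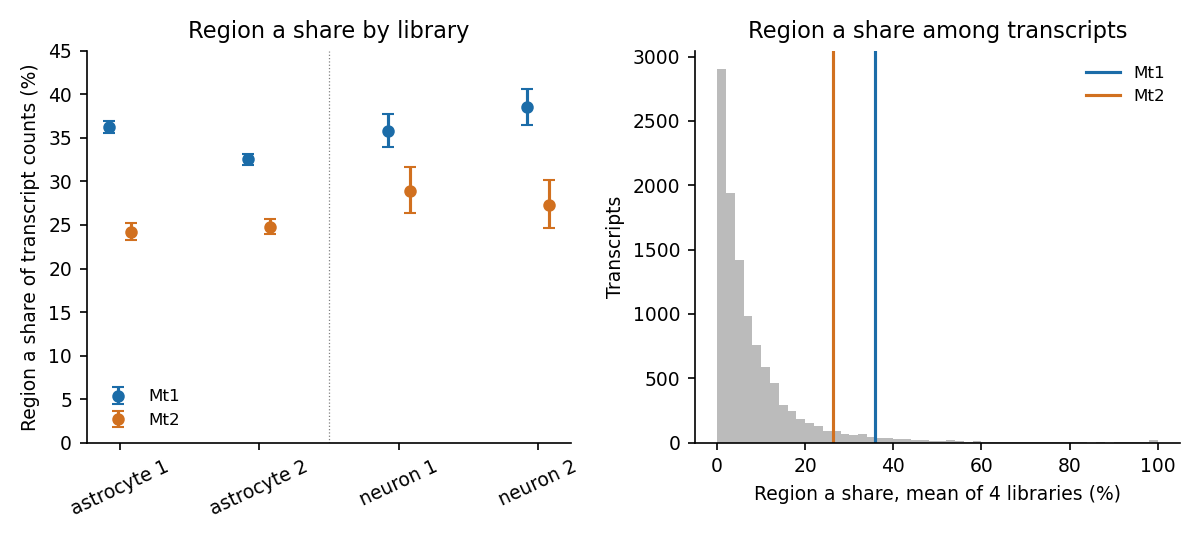
Left, the region a share of Mt1 and Mt2 in percent by library, with 95% Wilson intervals; right, a histogram of the mean share of the 10817 transcripts with at least 100 counts in every library, with lines for Mt1 and Mt2. Mt1 lies above Mt2 in each library, and both lie in the right tail of the histogram.

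In astrocytes, Mt1 supplied more region a counts than any other transcript. It had 6894 and 7421 region a counts in astrocyte 1 and 2, place 1 in both, or 1.217% and 1.135% of all region a counts of the library. In neuron 1 and 2 it had 898 and 816, places 27 and 91, or 0.1783% and 0.09426%. Mt2 had 1964 and 2440 region a counts in the astrocyte libraries, places 9 and 8, against 319 and 274 in the neuron libraries, places 184 and 530. Region a of the metallothioneins was among the heaviest in the astrocyte libraries, while by region b, again in counts not corrected for length, Mt1 stood at places 35 and 30 and Mt2 at places 74 and 68.

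The whole astrocyte libraries had a higher region a share than the neuron libraries, and the metallothioneins made up a small piece of that gap. Over all transcripts the share averaged 7.988% in astrocytes and 6.866% in neurons, a difference of 1.12 percentage points. With Mt1 and Mt2 left out it averaged 7.896% in astrocytes and 6.856% in neurons, a difference of 1.04 percentage points.

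Within the metallothionein transcripts themselves, region a relative to region b was on average lower in astrocytes, with overlap between the groups for Mt1 and none for Mt2. Region a stood at 57.91% and 49.03% of region b for Mt1 in astrocyte 1 and 2, against 56.66% and 63.75% in neuron 1 and 2. For Mt2 it stood at 32.17% and 33.25% in the astrocyte libraries, against 41.06% and 37.95% in the neuron libraries. In a quasi-likelihood model over both regions of 8778 transcripts, the log2 change of the ratio, astrocyte over neuron, was -0.17 (SE 0.192) for Mt1 and -0.27 (SE 0.207) for Mt2. Over all transcripts in the model the median was 0.215 and 70.6% lay above 0. As the same contrast was used to choose the transcripts, no test is given. Both changes were about as large as their standard errors with the same library total for both regions. With each region scaled to its own total they were larger, at -0.41 (SE 0.148) for Mt1 and -0.51 (SE 0.163) for Mt2. The difference in the region a share of Mt1, -2.76 percentage points for astrocyte minus neuron, depended on single libraries and was -4.62 without astrocyte 1, -0.896 without astrocyte 2, -4.11 without neuron 1 and -1.41 without neuron 2. That of Mt2 was -3.62 percentage points, and -4.42 to -2.82 with 1 library left out.

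The fold between the cell types was present in both main regions. Region a of Mt1 measured 945.3 and 931.3 CPM in astrocyte 1 and 2, against 124.5 and 63.59 CPM in neuron 1 and 2. Region b of Mt1 measured 1632 and 1899 CPM in the astrocyte libraries, against 219.8 and 99.74 CPM in the neuron libraries. The ratio of the group means was 9.975-fold in region a and 11.05-fold in region b. For Mt2 it was 8.774-fold in region a, with 269.3 and 306.2 CPM in astrocytes and 44.24 and 21.35 CPM in neurons. In region b of Mt2 it was 10.72-fold, with 837.1 and 921 CPM in astrocytes and 107.8 and 56.26 CPM in neurons. In both regions of both transcripts each astrocyte value lay above each neuron value, a separation that was not counted over all transcripts.

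**Figure D5:**
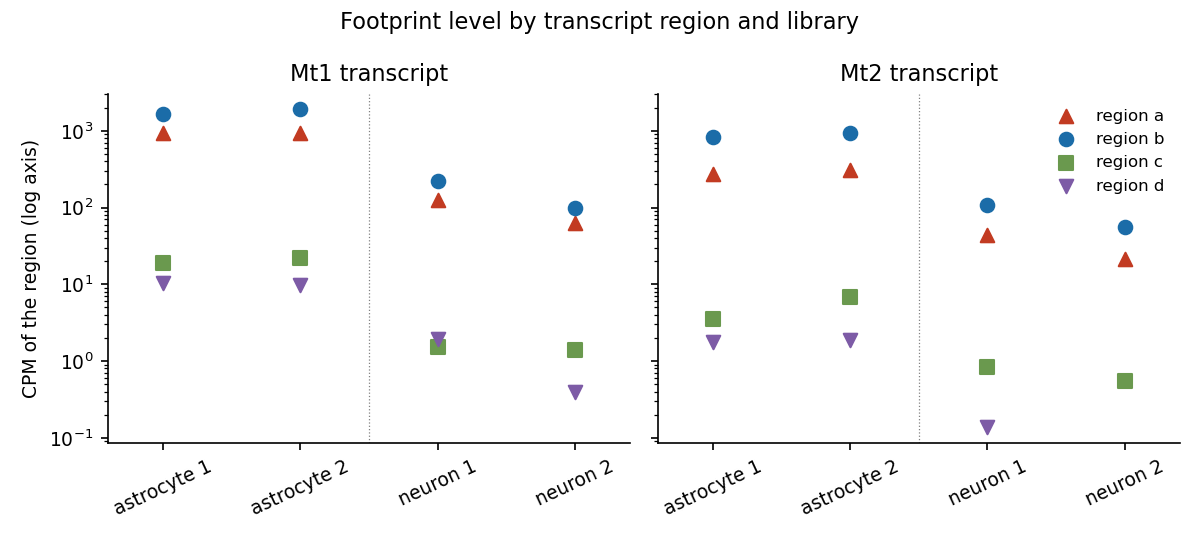
CPM of regions a, b, c and d on a log axis in each of the 4 libraries, for Mt1 (left) and Mt2 (right), with the astrocyte libraries left of the dotted line. Regions a and b are both lower in the neuron libraries, and region d of Mt2 in neuron 2 is not drawn because it had 0 counts.

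Regions c and d held few counts. Mt1 had 138 and 175 region c counts in astrocyte 1 and 2, against 11 and 18 in neuron 1 and 2. With this it stood at places 8 and 5 of all transcripts by region c count in the astrocyte libraries but at places 236 and 246 in the neuron libraries. Region c made up 0.7259% and 0.7672% of the Mt1 counts in astrocytes, and 0.4386% and 0.8495% in neurons, and the groups overlapped. Region d of Mt1 had 75 and 78 counts in the astrocyte libraries, against 14 and 5 in the neuron libraries.

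Mt2 had 26 and 54 region c counts in astrocyte 1 and 2, against 6 and 7 in neuron 1 and 2. Its region d had 13 and 15 counts in the astrocyte libraries, against 1 and 0 in the neuron libraries, where a count of 0 allows a share of up to 0.2991% in neuron 2. Region c was above region d in 4 of 4 libraries for Mt2 and in all but neuron 1 for Mt1. Among transcripts of at least 100 counts in every library with any count in regions c or d, 30.7% to 34.3% had region c above region d in a given library. In the neuron libraries the metallothionein counts of regions c and d are too few to show a difference between the cell types in these shares.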

How the data were processed

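The authors deposited raw counts, whole numbers of footprints for each region of a transcript, whose values show no normalization. All 4 libraries, 2 per cell type, were used. STAR 2.3.1z8, Bowtie2 2.2.2, Trimmomatic 0.32, FastQC 0.11.2, edgeR and bedtools are named without roles in the submitters' processing notes. How multiply mapping fragments and strand were handled, and which build and annotation were used, is not given in the sources used here. Mt1 and Mt2 are close paralogs, so counting could have split fragments between them. Neither had region a or region b counts identical to those of another transcript in all 4 libraries. Such a check cannot show whether fragments were split between Mt1 and Mt2.

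Counts were summed over the regions, and CPM is the count scaled to the library total. Transcripts passing filterByExpr (minimum count 10) were fitted in edgeR 4.0.16 (R 4.3.3) by quasi-likelihood with TMM scaling, cell type as the single term and Benjamini-Hochberg adjustment at 0.05. The model of the region ratio used the counts of regions a and b, with library, region and region by cell type terms. A standard error is the absolute log2 fold change over the square root of its F statistic. DESeq2 1.42.0 was an alternative. Each library is its own pool, so errors reflect 2 pools per group. Wilson intervals cover counting error only.

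The transcripts and lists were chosen with earlier results of these data known. Named transcripts were the metallothioneins and the 3 nearest to each in profile. Ranks by region, neuron levels as a percentage of astrocyte levels, region a shares without the pair and the promoter search were added after seeing the values. The lists of zinc and metal handling genes and of cell type markers need gene names for the transcripts and were not run. Promoter sequences are from RefSeq on GRCm38.p6, where all 3 metallothionein genes were matched by symbol.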

Additional observations from a re-analysis of the deposited data

How the results depend on the processing

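The astrocyte over neuron log2 fold changes kept their direction in all 10 alternatives, from 3.07 to 4.19 for Mt1 and from 3.03 to 4.05 for Mt2, with both ends set by leaving out a neuron library. The region a to region b change kept its sign in all 7 alternatives. Scaling each region to its own total, which removes any shift common to the transcripts, gave -0.41 (SE 0.148) for Mt1 and -0.51 (SE 0.163) for Mt2, and elsewhere the change lay between -0.33 and -0.05. The total of 3219 transcripts called was within 1.5 times in 6 of 10 alternatives. Calls higher in neuron came to 1506 under library totals and to 458 where a mean of 10 CPM was required, a setting that tests fewer transcripts. Leaving out 1 library gave 1523 to 8959 calls in all, 1357 to 4766 higher in astrocyte and 166 to 4193 higher in neuron. In these fits a single library was taken to vary like the remaining pair, and the cause was not tested. Nothing in the labels pairs same-numbered libraries, and their deviations correlated at r = -0.082 over 18819 transcripts. The replicate block gave log2 fold changes of 3.63 for Mt1 and 3.54 for Mt2 and 3417 calls. Alternatives for the list of zinc and metal handling genes were not run, since transcripts could not be paired with gene names. Depth limits regions c and d of both transcripts in the neuron libraries.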
